A study of Mus musculus with 3 samples.

Results

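Genes of the Wnt pathway were followed in 3 stable lines of C2C12, a mouse myoblast line that forms myotubes when serum is withdrawn. The 59 members were taken by gene symbol from the 22068 genes of the RNA-Seq files: all Wnt ligands listed there (19), the Frizzled receptors (10), the co-receptors Lrp5, Lrp6, Ror1 and Ror2, the secreted inhibitors of the Sfrp and Dkk families with Wif1 (10), the R-spondins and their Lgr receptors (7), and 9 proteins of the cytoplasm and nucleus. The symbol rule itself uses no measured value, although the gene set was proposed with earlier results of these data known. All 3 lines had been infected with lentivirus and selected with blasticidin, and they carried Linc-RAM (overexpression), a short hairpin RNA against Linc-RAM (knockdown) or the empty vector (control). RNA was polyadenylated and was taken after 12 h in medium with horse serum. The labels name an empty vector as the control, not a non-targeting hairpin, and whether each line was a pool or a clone is not given in the sources used here. There was 1 library per condition, so no difference below has a replicate check and no p-value can be given. The 1 control library served for both lines.

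Wnt ligands are secreted lipid-modified proteins that bind Frizzled receptors. In the canonical branch the co-receptors Lrp5 and Lrp6 join the complex, the destruction complex built on Axin is inhibited, and beta-catenin (Ctnnb1) accumulates and acts with TCF/LEF factors on target genes. In the planar polarity branch Frizzled, Ror receptors and Dishevelled act through the formins Daam1 and Daam2 on the actin cytoskeleton. Both branches take part in muscle formation and in the regeneration of muscle from satellite cells. For the comparison, 26 members were assigned to the canonical branch, 9 to the planar polarity branch and 24 to neither alone.

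Values are RPKM, reads scaled to gene length and library size, so levels can be compared between genes. Sets of 3 values are given in the order control, overexpression, knockdown. The read totals behind them came to 5130482, 2105514 and 1878146, so the control was the deepest library. Linc-RAM itself (2310015B20Rik) had a level of 0, 1.07 and 0 RPKM, where 1.07 may be as little as 1 read, so it does not check the labels. All 8 listed myoblast markers were above 1 RPKM in every library, and their summed level was 407, 627 and 251 RPKM, highest with overexpression. Des alone made up most of that sum, at 291, 386 and 145 RPKM. With knockdown 5 of the 8 were below the control and 3 above it. Those 3 were Vcam1 (15.2, 15.5 and 20.4 RPKM), Chrna1 (28.7, 55.6 and 32.9 RPKM) and Itga7 (16.8, 55.8 and 17.6 RPKM). Of 10 fibroblast and tenocyte markers, Thy1, Lum, Tcf21 and Tnmd were at 0 throughout, and the summed level ran from 197 to 211 RPKM. Neuronal markers summed to 119, 175 and 34.1 RPKM, with Snap25 and Elavl3 at 0 throughout. Of the 5 with a mean of at least 1 RPKM, 4 were above the control with overexpression. These were Tubb3 (26.2, 92.6 and 19.8 RPKM), Nefl (3.41, 18.8 and 0.266), Nefm (1.15, 6.76 and 0.495) and Gap43 (5.99, 19.3 and 4.09). Stmn2 was below it (81.9, 37.4 and 9.51 RPKM). With knockdown all 5 were below the control, Nefm and Gap43 within counting error. The 4 endothelial markers summed to at most 0.248 RPKM in any library, and the 4 macrophage markers to at most 2.00 RPKM. The part of these marker differences in the results below was not tested, and in such bulk RNA fewer cells of a type and less RNA per cell cannot be told apart.

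A mean RPKM of at least 1 over the 3 libraries was reached by 22 of the 59 members, called measured here, with a median of 116, 48 and 44.5 reads. Of the other 37, 16 were listed at 0 in all 3 libraries and 21 had some reads. Each ratio is followed by a 95% Clopper-Pearson interval, computed on reads recovered from the RPKM values, which covers counting error only. Of the 22, 13 stayed within 2-fold of the control in both lines. By line, 18 of the 22 did so with overexpression and 15 with knockdown. Of the 10171 genes compared at the same filter, 9442 and 9395 did.

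Among the ligands, Wnt10a was the most abundant in the control and the knockdown library held less than 1 in 2 of it. Wnt10a, a canonical ligand known from skin appendages and teeth, was at 40.8, 23.0 and 15.5 RPKM. The control was thus the highest and the knockdown the lowest of the 3. Its ratio to the control was 0.565 with overexpression (95% interval 0.447 to 0.707) and 0.380 with knockdown (0.283 to 0.502), from 410, 95 and 57 reads. Wnt10b, a canonical ligand known to hold back fat cell formation in mesenchymal precursors and myoblasts, went the other way with knockdown, at 7.0, 8.53 and 16.3 RPKM. Its ratio was 2.32 with knockdown (1.66 to 3.25), while the value of 1.22 with overexpression (0.812 to 1.80) was within counting error of the control. Directly compared, Wnt10b was lower in the overexpression than in the knockdown library (0.525, 0.346 to 0.787) and Wnt10a higher (1.49, 1.06 to 2.10).

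The ratio of Wnt10a to Wnt10b on the RPKM scale was 5.82, 2.70 and 0.952, so that both paralogs were at a like level in the knockdown library. Wnt10a made up 75.7%, 64.6% and 42.7% of the summed RPKM of the 19 ligands, and Wnt10b 13%, 23.9% and 44.9%. The sum itself was 53.8, 35.6 and 36.2 RPKM. The third measured ligand, Wnt9a, known from joint formation, was at 2.06, 2.72 and 3.21 RPKM, and both of its intervals held a ratio of 1. Wnt6, which lies next to Wnt10a, fell under the filter at 2.07, 0.689 and 0 RPKM. From 22 control reads and none with knockdown, the interval of its ratio there reached up to 0.499. With the 0 set to a floor of 3 reads, Wnt6 was 2.69-fold lower, a value that is not a bound. Its ratio of 0.332 with overexpression (0.0637 to 1.11), from 3 reads, was within counting error. Wnt7b had 11 reads in the control and was listed at 0 in the other libraries. The planar polarity ligands Wnt5a, Wnt5b and Wnt11 were all below 1 RPKM, with a sum of 0.535, 0.541 and 1.15 RPKM, and 8 ligands, Wnt3a and Wnt7a among them, had no read in any library.

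**Figure D1:**
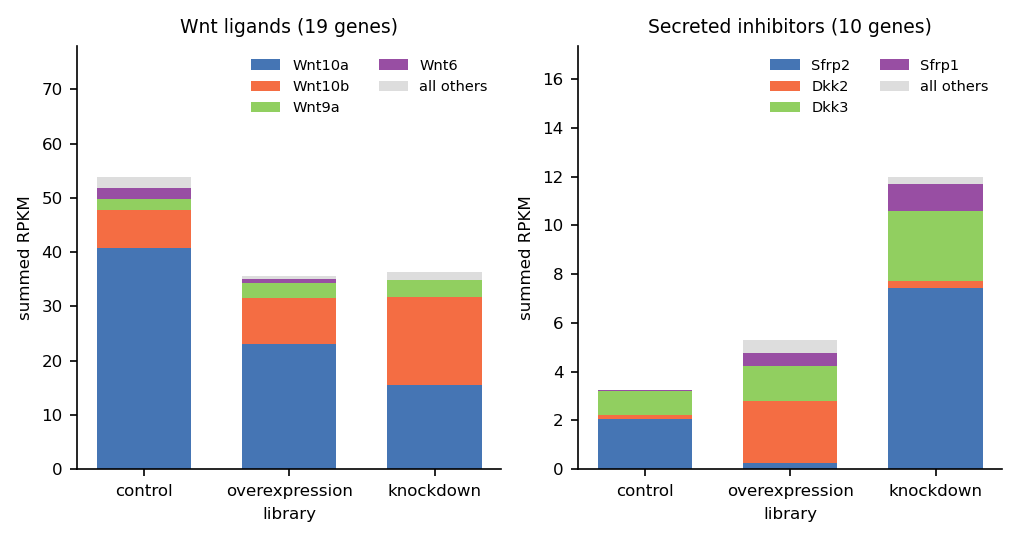
Stacked bars of the summed RPKM (vertical axes, linear) of 19 Wnt ligands (left) and 10 secreted inhibitors (right) in the control, overexpression and knockdown libraries, 1 library per bar and with no error bar. Wnt10a was 75.7% of the ligand sum in the control and 42.7% with knockdown, and Sfrp2 was the largest inhibitor in the control and with knockdown but not with overexpression, where Dkk2 was.

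The promoter of Wnt10b is shown because it is one of the members at least 2-fold apart at a mean RPKM of at least 5, which also include Wnt10a, Daam1 and Daam2. The sequence is RefSeq's, from 250 bases before to 50 after the start site, and matches the mm9 genome once at chr15:98608532-98608831 on the reverse strand. Capitals mark a 6-base E-box, CAGGTG, the kind of site that MyoD and other basic helix-loop-helix factors bind, which begins 190 bases before the start.

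Wnt10b promoter: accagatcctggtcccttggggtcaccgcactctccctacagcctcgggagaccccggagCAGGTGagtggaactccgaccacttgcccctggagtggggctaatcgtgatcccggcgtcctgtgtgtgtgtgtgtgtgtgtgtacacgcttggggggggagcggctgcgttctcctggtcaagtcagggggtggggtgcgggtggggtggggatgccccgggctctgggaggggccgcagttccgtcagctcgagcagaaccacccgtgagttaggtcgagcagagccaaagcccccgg

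Among the receptors, Fzd1 and Fzd2 led, and all 5 measured Frizzled genes lay below the control with overexpression, none by 2-fold, where 5040 of all 10171 genes did. Only the intervals of Fzd1 and Fzd2 left out 1. Fzd1 was at 33.3, 22.3 and 40.4 RPKM. Its ratios to the control were 0.671 with overexpression (0.534 to 0.837) and 1.21 with knockdown (1.0 to 1.46), so the overexpression library was the lowest. Fzd2 was at 32.1, 20.3 and 24.8 RPKM, below the control in both lines at 0.633 (0.527 to 0.756) and 0.773 (0.648 to 0.919). Fzd7, the receptor through which Wnt7a acts on satellite cells, was at 15.4, 12.7 and 15.4 RPKM and its intervals held 1. Fzd6, a receptor of planar polarity, was at 8.05, 6.08 and 9.52 RPKM, lower with overexpression than with knockdown (0.639, 0.440 to 0.921). Fzd5 alone of the 5 was at least 2-fold from the control, at 1.55, 1.44 and 3.23 RPKM with a ratio of 2.09 with knockdown (1.36 to 3.18). Fzd3, the other planar polarity receptor, had a mean just under 1 RPKM and stood at 0.413, 1.60 and 0.919 RPKM, 3.88-fold above the control in the overexpression library (2.34 to 6.53) and 2.23-fold above it in the knockdown library (1.21 to 4.06). Fzd8 reached 1.11 RPKM with knockdown, Fzd4, at 0.212, 0.644 and 0.578 RPKM, and Fzd9 stayed below 1 RPKM, and Fzd10 was at 0. Frizzled genes resemble each other in sequence, and how reads with several matches were treated is not given in the sources used here.

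Of the co-receptors of the canonical branch, Lrp6 was within counting error of the control and Lrp5 was lower with knockdown. Lrp6 was at 7.18, 6.54 and 6.99 RPKM, with a ratio of 0.911 in the overexpression library (0.626 to 1.30) and 0.974 in the knockdown library (0.665 to 1.4). Lrp5, its paralog, was at 9.84, 11.1 and 6.79 RPKM, with the knockdown library lowest at 0.691 of the control (0.519 to 0.908), and the overexpression library was 1.64-fold above it (1.2 to 2.24). Ror2, a receptor for Wnt5a, was at 1.28, 0.359 and 1.34 RPKM, with 26, 3 and 10 reads and a ratio of 0.281 with overexpression (0.0545 to 0.917), and Ror1 stayed below 0.5 RPKM in all 3 libraries.

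Secreted inhibitors were few and low, and Sfrp2 led in the control and knockdown libraries but Dkk2 with overexpression. Sfrp2, which binds Wnt ligands through a Frizzled-like domain, was at 2.05, 0.237 and 7.45 RPKM, highest with knockdown. These values come from 21, 1 and 28 reads. Its ratio was 3.64 with knockdown (1.99 to 6.75) and 0.116 with overexpression (0.00281 to 0.722). Dkk2, which binds Lrp5 and Lrp6, was at 0.158, 2.56 and 0.287 RPKM, high with overexpression alone at 16.2-fold (4.82 to 85.4) over a control of 3 reads. Dkk2 was measured only through that library, since its mean of 1.003 RPKM just passed, and with 1 RPKM added its log2 ratio of 4.02 became 1.62. Dkk3, a divergent member of the family, was at 0.987, 1.41 and 2.85 RPKM and above the control with knockdown (2.89, 1.41 to 5.97). Sfrp1 was at 0.0446, 0.543 and 1.1 RPKM, from 1 read in the control. The 10 inhibitors summed to 3.24, 5.30 and 12 RPKM, and 5 of them, Dkk1 and Wif1 included, had no read.

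R-spondins, which raise the amount of Frizzled and Lrp6 at the cell surface, were barely present. Rspo3 was at 1.14 RPKM in the control from at least 7 reads and listed at 0 in both other libraries. The intervals of its ratio reached up to 1.69 with overexpression and 1.895 with knockdown, so these depths cannot tell the zeros from an unchanged level. Rspo1 stayed below 0.8 RPKM, and Rspo2 and Rspo4 had no read. Their receptor Lgr4 was at 4.85, 3.29 and 3.89 RPKM, below the control with overexpression (0.677, 0.452 to 0.991). Lgr6 was between 0.735 and 1.18 RPKM, and Lgr5, a canonical target in stem cells of several tissues, had 1 read in the control, none with overexpression and 6 with knockdown.

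Beta-catenin was the most abundant member, and Lef1 was lower than the control in both lines. Ctnnb1, which also links cadherins to actin, was at 115, 90.8 and 127 RPKM. With 2138, 693 and 865 reads its intervals are narrow, 0.724 to 0.861 around a ratio of 0.790 with overexpression and 1.02 to 1.2 around 1.11 with knockdown, and overexpression was the lowest library. Axin1, the scaffold of the destruction complex, was at 10.3, 9.17 and 8.74 RPKM and its intervals held 1. Lef1, a DNA-binding partner of beta-catenin, was at 4.84, 1.93 and 1.52 RPKM, from 61, 10 and 7 reads. Relative to the shared control this was 0.400 with overexpression (0.183 to 0.786) and 0.313 with knockdown (0.121 to 0.686), and between the 2 lines no difference was detectable (1.27, 0.438 to 3.94). Axin2, a common readout of canonical signalling, had 20, 2 and 3 reads, so the ratio of 0.244 with overexpression (0.0276 to 1.0) lay at the edge of counting error and that of 0.410 with knockdown (0.0780 to 1.38) inside it. The Dishevelled genes, used by both branches, were at 8.56, 12.3 and 12.4 RPKM (Dvl1), 11.6, 9.55 and 8.53 RPKM (Dvl2) and 5.48, 9.65 and 5.41 RPKM (Dvl3). Of these Dvl3 alone had an interval without 1, at 1.76 with overexpression (1.24 to 2.49). Exons of Ctnnb1, Dvl1, Dvl2 and Sfrp2 overlap another annotated gene, and without knowledge of the strand used in counting such reads cannot be told apart.

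**Figure D2:**
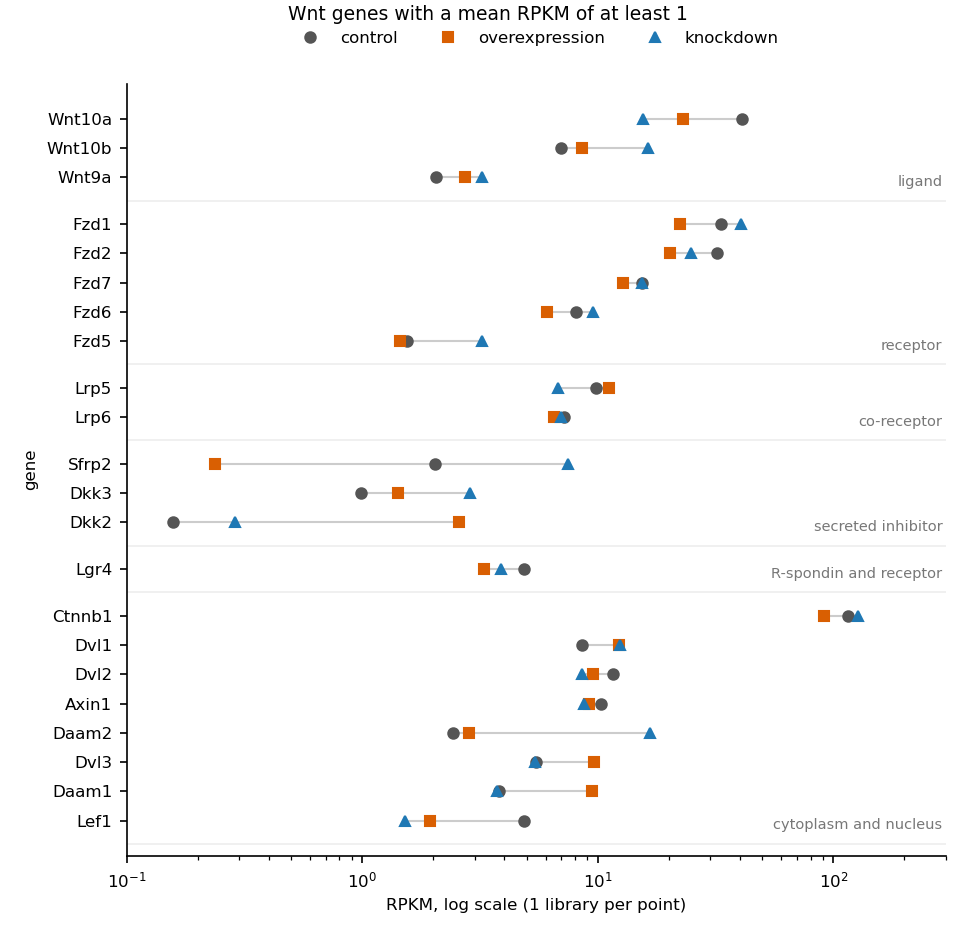
RPKM on a log axis of the 22 Wnt genes with a mean of at least 1 RPKM, grouped by role, with 1 point per library (circle control, square overexpression, triangle knockdown) and a grey line from the lowest to the highest. Sfrp2, Dkk2, Daam2 and Lef1 have the most widely spaced points, while Lrp6, Axin1 and Fzd7 have their 3 points close together.

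Of the 2 formins, Daam2 was high in the knockdown library and Daam1 in the overexpression library. Daam2, which lies on chromosome 17 of mm9 from 49595347 to 49703662, was at 2.42, 2.83 and 16.6 RPKM. Its ratio of 6.88 with knockdown (5.24 to 9.12) rests on 75 control and 189 knockdown reads, and with overexpression its ratio of 1.17 (0.763 to 1.76) was within counting error. Daam1, on chromosome 12 from 72932065 to 73093354, was at 3.8, 9.41 and 3.72 RPKM. It was 2.48-fold above the control with overexpression (1.90 to 3.23) and at 0.981 with knockdown (0.672 to 1.41). Control and knockdown thus shared the low level of Daam1, and control and overexpression that of Daam2. The ratio of Daam1 to Daam2 was 1.57, 3.33 and 0.224, and the direct comparison of overexpression to knockdown gave 2.53 for Daam1 (1.76 to 3.68) and 0.170 for Daam2 (0.116 to 0.244).

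Both promoters are shown because these formins are paralogs with different patterns. The Daam1 sequence matches mm9 once at chr12:72931805-72932104 on the forward strand, and capitals mark TCAAAG, the reverse complement of the TCF/LEF core CTTTGA, which begins 40 bases before the start, and CACCTG, the reverse complement of CAGGTG, after it. RefSeq lists another Daam1 start, with its promoter at chr12:72990280-72990579, in which none of the letters searched occurs and which is not printed. The Daam2 sequence matches once at chr17:49703613-49703912 on the reverse strand, and has no capitals since none of the letters searched occurs in it.

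Daam1 promoter: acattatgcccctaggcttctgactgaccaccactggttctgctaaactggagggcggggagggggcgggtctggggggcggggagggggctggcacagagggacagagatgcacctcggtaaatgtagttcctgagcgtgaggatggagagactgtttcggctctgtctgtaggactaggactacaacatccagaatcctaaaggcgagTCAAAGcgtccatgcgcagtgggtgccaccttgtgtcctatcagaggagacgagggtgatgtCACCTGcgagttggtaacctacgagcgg

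Daam2 promoter: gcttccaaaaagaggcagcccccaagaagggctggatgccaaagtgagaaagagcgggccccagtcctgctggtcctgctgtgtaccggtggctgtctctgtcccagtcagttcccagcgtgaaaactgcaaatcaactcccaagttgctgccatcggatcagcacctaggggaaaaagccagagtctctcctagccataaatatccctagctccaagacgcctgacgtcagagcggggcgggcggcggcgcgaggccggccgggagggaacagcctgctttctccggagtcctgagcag

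The letters searched, on both strands, were the E-box letters CAGCTG, the E-box variant CAGGTG and the TCF/LEF core CTTTGA. Of 32851 RefSeq promoters of this length, 16.3%, 20.2% and 16% hold them. By gene, over all starts listed, the shares were 18.3%, 22.6% and 18.2%. Promoters were found for 15 of the 22 measured members, and 3 (Dvl3, Lef1 and Wnt9a), 5 (Daam1, Dvl1, Fzd5, Lef1 and Wnt10b) and 3 (Daam1, Fzd1 and Lef1) of these had a match. A match is a description of these letters and not a site of binding.

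Counted together, the members at least 2-fold from the control with overexpression were Daam1 and Dkk2 above it and Lef1 and Sfrp2 below it. That is 2 of 22 higher (9.09%), against 3.7% of the 10171 genes compared, but Dkk2 was among the 22 through the overexpression library alone, so 1 of these 2 had to be higher and nothing is read from that share. There were 2 of 22 lower (9.09%), against 3.47%. The median log2 ratio of the 22 was -0.15, with 9 above and 13 below the control, and that of all genes was 0.0048. Intervals without 1 were found for 10 of the 22, against 18% of all genes, whose median in the control was 88 reads where that of these members was 116. With knockdown 5 members were higher (22.7%), Daam2, Sfrp2, Dkk3, Wnt10b and Fzd5, against 3.44% of all genes, and 2 were lower (9.09%), Wnt10a and Lef1, against 4.19%. The median was 0.07, against -0.014 over all genes, with 11 above and 11 below, and 11 of the 22 intervals left out 1, against 19.4%. In the direct ratio of overexpression to knockdown, Daam1 and Dkk2 were at least 2-fold higher (9.09%, against 6.08%, with Dkk2 again in by its high value) and Daam2, Sfrp2, Dkk3 and Fzd5 lower (18.2%, against 5.09%), with 12 of 22 intervals without 1, against 17.9%. These counts are small, and 1 gene more or less moves a share by several percent.

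**Figure D3:**
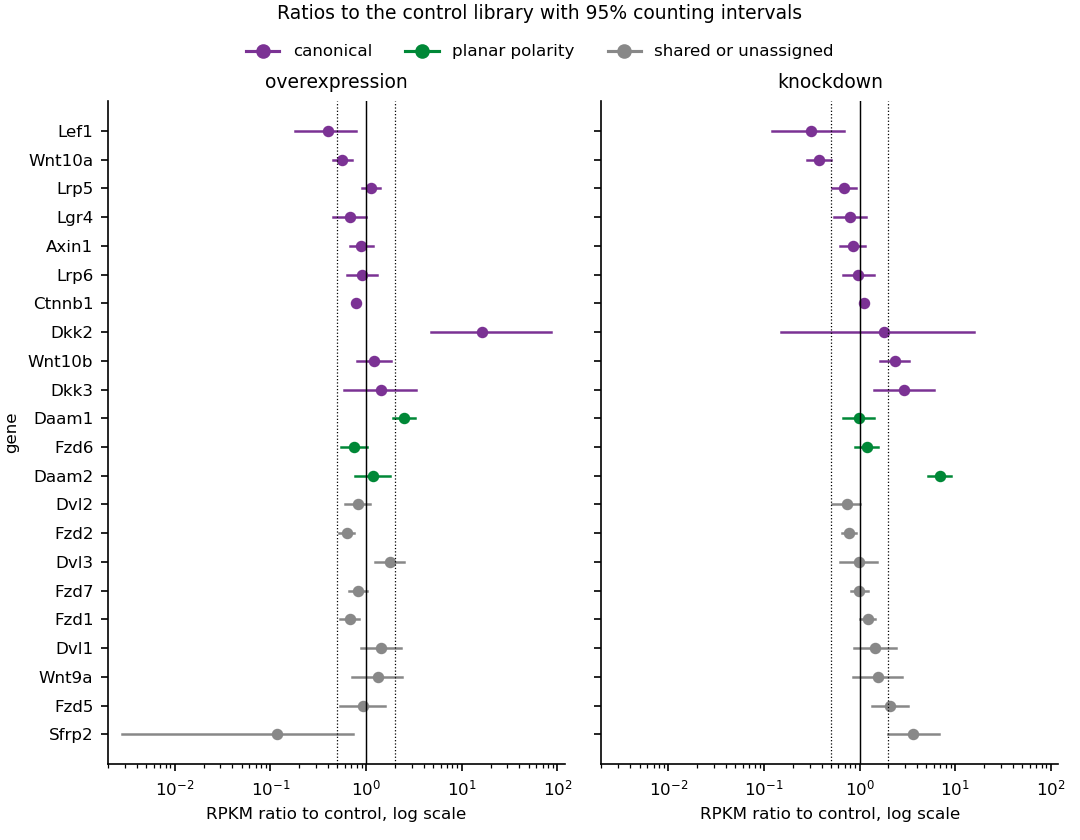
RPKM ratios to the control library on a log axis, with overexpression (left) and knockdown (right), for the 22 measured Wnt genes coloured by branch. Points are ratios, horizontal lines 95% Clopper-Pearson intervals of counting error from 1 library each, and dotted lines mark 2-fold. Daam1 lies right of 2-fold on the left panel only and Daam2 on the right panel only.

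The canonical and planar polarity branches had medians near the control. Of 26 canonical members 10 were measured, and their median log2 ratio was -0.15 with overexpression, -0.14 with knockdown and -0.01 between the 2 lines. With overexpression 1 was at least 2-fold higher (Dkk2, measured through that library alone) and 1 lower (Lef1), and with knockdown 2 were higher (Dkk3 and Wnt10b) and 2 lower (Wnt10a and Lef1). Of 9 planar polarity members only Daam1, Daam2 and Fzd6 were measured, and their medians were 0.23, 0.24 and -0.65. A median of 3 genes is 1 gene's value, here Daam2 with overexpression and Fzd6 in the other comparisons. The branches therefore could not be ranked against each other, and no shift of a whole branch was seen.

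Other genes of the pathway were read from lists of genes that are not members by the symbol rule or are common targets. Of 24 genes of the canonical machinery 20 were measured. None was 2-fold from the control with overexpression (median -0.10), and with knockdown Apc2 alone was (0.373, 0.163 to 0.751, median -0.0044). Tcf7, another DNA-binding partner of beta-catenin, was at 4.82, 9.40 and 6.70 RPKM, so that its ratio of 1.95 with overexpression (1.28 to 2.95) was opposite in direction to that of Lef1. Bcl9l, a co-activator, was at 0.737 with overexpression (0.620 to 0.872), and Kremen1, a receptor for Dkk proteins, at 0.732 with knockdown (0.631 to 0.847). Ctnnbip1 was lower than Kremen1 with knockdown, at 0.689 (0.445 to 1.035), but its interval held 1. Wls, the carrier that takes Wnt ligands to the cell surface, was abundant at 88.6, 73.6 and 91.5 RPKM, and Porcn, which acylates them, was at 5.35, 6.01 and 7.58 RPKM, and neither was 2-fold from the control.

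Of 13 canonical targets 5 were measured, with a median of 0.20 with overexpression and 0.29 with knockdown, and Lef1 alone was at least 2-fold from the control in either line. Ccnd1, a cyclin of the G1 phase, was at 19, 21.8 and 18.4 RPKM, Nkd2 at 1.51, 1.77 and 2.48, and Znrf3 at 2.01, 1.58 and 2.45, and all their intervals held 1. Of 19 genes of the planar polarity core and its effectors 14 were measured, with 11 above and 3 below the control in each line (medians 0.12 and 0.11). Over all genes 5131 of 10171 were above the control with overexpression and 4926 with knockdown. Of these 14 genes 4 and 3 had an interval without 1, against 18% and 19.4% of all genes. Among them were Rhoa and Cdc42, whose 802 and 824 control reads, where the median of all genes was 88, make narrow intervals. Dact1, a Dishevelled-binding protein, was the single one of the 14 at 2-fold, with a ratio of 0.449 with overexpression (0.169 to 1.02) from few reads. Prickle1, a core protein, was above the control with knockdown (1.59, 1.02 to 2.43). Rock1, a kinase that acts on actomyosin, was above it with overexpression (1.36, 1.02 to 1.81). The GTPase Cdc42 was at 75.6, 101 and 96.5 RPKM, above the control in both lines by less than 1.5-fold. Vangl2 was at 2.07, 2.52 and 1.65 RPKM, with intervals that held 1, and Celsr2 and Celsr3 had no read.

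**Figure D4:**
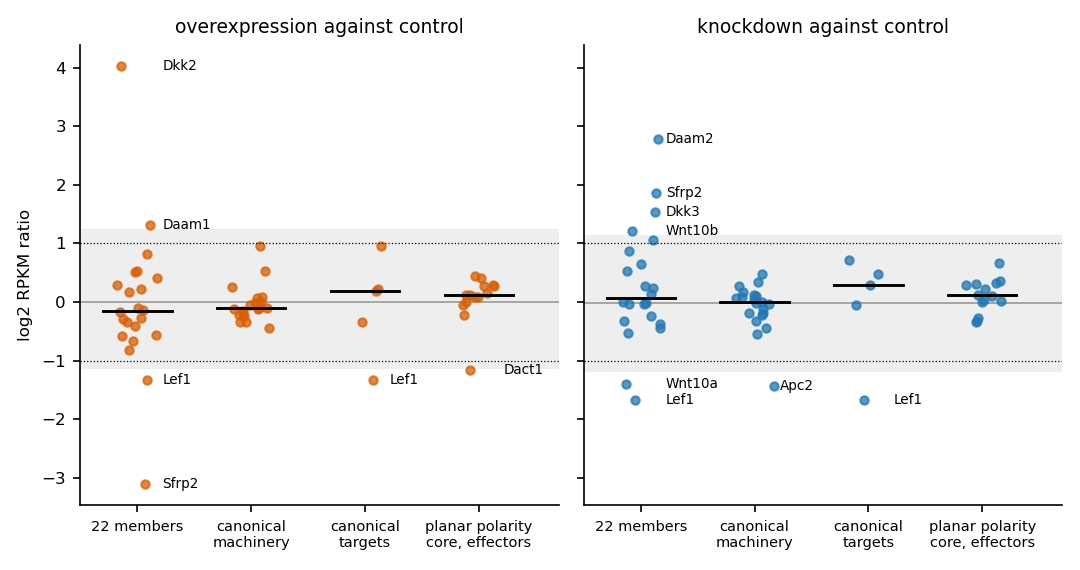
Log2 of the RPKM ratio to the control, overexpression on the left and knockdown on the right, for the 22 Wnt members and the measured genes of 3 other lists. Each point is 1 gene, black bars are medians, dotted lines mark 2-fold, and the grey band holds the central 95% of all genes, from -1.13 to 1.23 on the left and from -1.18 to 1.12 on the right.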

How the data were processed

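Polyadenylated RNA of 3 C2C12 lines was sequenced, 1 library each. Alignment to mm9 was done by the authors with TopHat (1.4.1 in the submitters' processing notes), and DEGSeq gave the read coverage per gene. The deposited files hold 1 RPKM value per gene. The sources used here give neither the annotation, nor the treatment of reads with several matches, nor the read totals.

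Ratios were taken from RPKM as deposited, with no pseudocount, over the 10172 genes with a mean of at least 1 RPKM (10171 with a read in either library of a comparison with the control). The 2-fold criterion is that of the study's methods. A gene at 0 in 1 library was counted in that direction. Read totals were searched for, in each library, over 1500 genes of few reads and their GENCODE lengths. The smallest total that fitted nearly as well as the best was taken, so the totals are inferred and not reported values. At the totals used, 54.1%, 52.5% and 51.3% of these genes held whole reads (within 0.003 per read), where the median total tried gave 0.733%, 2.4% and 2.73%. Reads per gene used a GENCODE length where 1 gave whole reads in all 3 libraries (9 of 22 members), otherwise the smallest whole length from 200 nt, so they are lower estimates. The search for read totals, the recovery of reads, the 2-fold call and the counting intervals were tested on simulated data. All simulated lengths were GENCODE lengths, whereas here only 9 of 22 members matched 1. The intervals were tested on the simulated reads and totals and not on recovered ones. The other steps were not tested.

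The members and lists were chosen with earlier results of these data known. Members with a mean of at least 1 RPKM were all named. Of the lists of other pathway genes the text names up to 2 genes of highest and 2 of lowest ratio per comparison and, chosen after their values were seen, genes at 0. It also names Kremen1 and Rhoa, which lie outside that rule. Gene positions are from GENCODE on mm9, promoters from RefSeq (GRCm38.p6), placed on mm9 by exact match. Wnt10a is named without one. Calculations were made in Python 3.11.15 with scipy 1.17.1, pandas 2.3.3 and numpy 2.4.6, and figures with matplotlib 3.10.9. Alternatives were other filters, 1 RPKM added, 2 scalings, a 1.5-fold threshold, a call that also needs the interval, and core members alone.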

Additional observations from a re-analysis of the deposited data

How the results depend on the processing

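With 1 library per condition, all intervals cover counting error only, and differences between lines from culture, infection or library making cannot be told apart from those of Linc-RAM. By the inferred totals the control had more reads than both other libraries together, so low genes are better measured there. No paired analysis was possible because each group holds 1 library.

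Centring on the median of all genes or scaling to the upper quartile changed none of the counts of members at 2-fold by more than 1.5 times, nor the direction of any of the 22 members that was 2-fold apart. Asking for an interval without 1 did not move a count by more than that either. The filter mattered most. At a mean of at least 5 RPKM the members higher and lower with overexpression were 1 and 0 (from 2 and 2), with knockdown 2 and 1 (from 5 and 2), and between the lines 1 and 1 (from 2 and 4). With no filter they were 7 and 13, 13 and 12, and 5 and 10. Where the lower of the 2 libraries had to reach 1 RPKM, overexpression kept 1 higher and 1 lower, and 1 was higher between the lines. With 1 RPKM added, 1 was lower with overexpression, 3 were higher with knockdown and 2 lower between the lines. At 1.5-fold, 4 were lower with overexpression, and 4 higher and 7 lower between the lines. The planar polarity median with knockdown became 1.38 over the core members Daam1 and Daam2 alone. With 1 RPKM added the log2 ratio of Daam2 with knockdown was 2.37.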

Other observations

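Several Wnt genes lie next to each other in the genome, and their neighbours can be set beside them. On chromosome 1 of mm9, Wnt6 (74818466 to 74831893) starts 19.6 kb before Wnt10a (74838090 to 74850753) on the same strand. Both were highest in the control and lowest with knockdown, Wnt6 at 2.07, 0.689 and 0 RPKM. The Wnt6 values come from 22, 3 and 0 reads, and only its difference between control and knockdown was beyond counting error. The other genes on either side, Prkag3 and Cyp27a1 before and Cdk5r2, Fev and Cryba2 after, were at 0 in all 3 libraries. On chromosome 15, Wnt1 lies 11.7 kb from Wnt10b and had 1 read in the control and none elsewhere. The neighbours on the other side of Wnt10b, Arf3 at 69.4, 73.3 and 57.1 RPKM and Fkbp11 at 9.80, 12.9 and 15.9, differed less from the control than Wnt10b with knockdown. Fkbp11 had the same order of libraries as Wnt10b, with intervals that held 1.

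Around Daam2 on chromosome 17, Mocs1, whose end lies beside that of Daam2, was at 5.16, 3.41 and 6.24 RPKM, and Kif6, on its other side, was at 0. Next to Sfrp2 on chromosome 3, Tlr2 was at 3.89, 1.83 and 4.48 RPKM, the same order of libraries as Sfrp2. The Tlr2 ratio was 0.470 with overexpression (0.222 to 0.906) and 0.409 for overexpression to knockdown (0.181 to 0.867). Its ratio of 1.15 with knockdown (0.683 to 1.88) was within counting error. Dact1, the gene before Daam1 on chromosome 12, was at 1.97, 0.884 and 1.98 RPKM, lowest where Daam1 was highest. Why neighbours do or do not share an order was not tested.

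Outside the Wnt genes, markers that fibroblasts share with other mesenchymal cells differed between the lines in part. Pdgfra was at 3.39, 2.68 and 6.56 RPKM, and Fmod, a small matrix proteoglycan, at 4.16, 0.997 and 8.01, the order also seen for Sfrp2. Dcn was highest with overexpression, at 1.12, 4.33 and 0.766 RPKM, while Scx, at 29.3, 35.5 and 33.3, and Col3a1, at 163, 167 and 148, were closer to the control.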
